A study of Mus musculus with 8 samples.

Results

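Messenger RNA of 10 genes of the axonal transport motors was followed in mouse hippocampus: Kif1a, Kif1b, Kif5a, Kif5b, Kif5c and Kif21b of the kinesins, Dync1h1 and Dync1i1 of cytoplasmic dynein, and Dctn1 and Dctn2 of dynactin. The genes were chosen by name, with earlier results of these data known. All 10 were found among the 31417 genes of the count table and passed the filter on low counts, which left 16228 genes. The comparison was between Dclk3 knockout (KO) and wild-type (WT) mice aged 12 months, with 4 libraries of poly(A) RNA in each genotype. Dclk3 encodes a doublecortin-like kinase. Neither the deleted stretch of the gene nor the strain or sex of the mice is stated in the labels. Each library came from a single hippocampus, but whether those of a genotype are from different animals is not said, so p-values measure the spread between these samples, which may be technical in part.

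Neurons move cargo over long distances along microtubules. Kinesins carry most cargo outward, towards the plus ends of axonal microtubules. Cytoplasmic dynein carries cargo back towards the cell body, and needs dynactin, a separate multi-subunit complex, to bind cargo and to run far. Kinesin-1 is built from heavy chains of the Kif5 family with light chains, and the kinesin-3 motors Kif1a and Kif1b carry precursors of synaptic vesicles.

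Libraries held 29301974 to 36552757 counts, and the 10 genes together took 0.795% to 0.864% of them. Single counts of a member ran from 2317, for Kif21b in KO replicate 4, to 113416, for Kif5a in KO replicate 1. The exact Poisson interval (95%) of that lowest count was 2224 to 2413, and intervals of this kind cover counting error only. The label check was Dclk3 itself, whose CPM (read count scaled to library size by TMM factors) averaged 26.7 in WT (SD 8.51, n = 4) against 7.71 in KO (SD 1.42, n = 4), with no overlap. All 10 hippocampal field markers looked up, among them Neurod6, Fibcd1 and Prox1, were detected. WT replicate 2 was the highest on the first principal component (35.8), with Gfap, an astrocyte filament gene, at 1805 CPM against 442 to 578 CPM elsewhere. KO replicate 1 was the lowest on it (-26.1). Its Neurod6 level was 147 CPM against 210 to 253 CPM elsewhere, and its Fibcd1 level 154 CPM against 209 to 281 CPM. Its Prox1 level, 119 CPM, lay within the 97.8 to 130 CPM of the other libraries. Ttr, a choroid plexus gene, ranged from 31.8 CPM in WT replicate 4 to 3158 CPM in KO replicate 2.

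Promoter windows, from 250 bases before to 50 bases after a start site, were held by RefSeq (GRCm38.p6) for 7 of the 10 genes, in 10 windows. The promoter of Dync1i1 is shown because this gene had the lowest p of the 10. That of Dctn2 is shown because Kif5a is its neighbour. Those of Kif1b and Dync1h1 are shown because their levels had the closest course across libraries. Each is written 5′ to 3′ on the strand of its gene, with motif matches in capitals. The motifs searched on both strands were TATAAA, the GC box GGGCGG, the CCAAT box, the palindromic NRF1 motif and the cAMP response element TGACGTCA.
Dync1i1, chr6:5725389-5725688, plus strand: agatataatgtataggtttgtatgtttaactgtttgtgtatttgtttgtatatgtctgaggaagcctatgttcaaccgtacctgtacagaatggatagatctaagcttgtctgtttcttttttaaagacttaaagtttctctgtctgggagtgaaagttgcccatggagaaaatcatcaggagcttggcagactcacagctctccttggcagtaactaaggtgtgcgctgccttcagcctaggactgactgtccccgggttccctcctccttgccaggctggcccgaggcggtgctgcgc
Dctn2, chr10:127266012-127266311, plus strand: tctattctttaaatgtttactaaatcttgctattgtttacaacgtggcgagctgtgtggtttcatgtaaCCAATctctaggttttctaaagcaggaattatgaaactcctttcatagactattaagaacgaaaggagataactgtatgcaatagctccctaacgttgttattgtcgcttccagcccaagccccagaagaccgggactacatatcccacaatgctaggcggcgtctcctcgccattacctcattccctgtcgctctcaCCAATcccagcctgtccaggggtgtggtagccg
Kif1b, chr4:149307684-149307983, minus strand: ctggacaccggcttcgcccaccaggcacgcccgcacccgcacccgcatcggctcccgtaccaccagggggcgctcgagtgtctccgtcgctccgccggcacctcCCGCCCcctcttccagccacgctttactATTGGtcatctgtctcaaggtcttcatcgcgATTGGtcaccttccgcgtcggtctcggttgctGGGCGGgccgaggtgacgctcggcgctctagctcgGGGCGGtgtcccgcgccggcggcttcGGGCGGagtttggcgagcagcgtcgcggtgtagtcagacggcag
Dync1h1, chr12:110601145-110601444, plus strand: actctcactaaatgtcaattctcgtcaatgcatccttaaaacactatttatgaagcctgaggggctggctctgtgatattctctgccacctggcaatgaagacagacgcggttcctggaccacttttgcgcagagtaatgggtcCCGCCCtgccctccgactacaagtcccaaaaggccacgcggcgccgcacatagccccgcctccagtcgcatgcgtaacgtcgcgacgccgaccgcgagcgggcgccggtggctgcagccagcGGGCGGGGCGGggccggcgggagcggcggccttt
The Dync1i1 window held 6 CpG dinucleotides, had 46.7% G and C, and matched none of the 5 motifs. The Kif1b window held 40 CpG, more than 96.1% of the 32841 windows in the table, with 4 GC boxes and 2 CCAAT boxes. The Dync1h1 window held 30 CpG and 3 GC boxes, 2 of which overlap by a single base in the long capital run. The Dctn2 window held 11 CpG and 2 CCAAT boxes. Over all windows the median was 7 CpG. A GC box was found in 35.7% of all windows, CCAAT in 37.4%, TATAAA in 13.6%, the cAMP response element in 1.79% and the NRF1 motif in 0.971%. Of the 7 members with a window, 3 had a GC box, 2 had CCAAT, and 1, Kif5c, had both TATAAA and the cAMP response element. A match is a description of these letters and not a site.

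Kif5a and Dctn2 are neighbours in the genome. Kif5a (ENSMUSG00000074657, mm10 chromosome 10, 127225696 to 127263348, minus strand) and Dctn2 (ENSMUSG00000025410, 127266368 to 127281950, plus strand) point away from each other, with 3020 bases between their annotated starts. Across the 8 libraries their log2 levels had a Pearson r of 0.27 and a Spearman rho of -0.05, and with each genotype centred on its own mean r was 0.65. Dync1i1 (ENSMUSG00000029757, chromosome 6, 5725639 to 6028039, plus strand) spans 302 kb for 3.57 kb of exon. Dctn1 (ENSMUSG00000031865, chromosome 6, 83165920 to 83200117, plus strand) lies elsewhere on the same chromosome.

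Reads of the motor genes were mostly assignable to a single gene. No stretch of 50 bases in the annotated transcripts of one member occurred in another member, so Kif5a, Kif5b and Kif5c do not share such reads. Against all other genes, 0% of these stretches were shared for Kif5a, Kif5c, Kif21b and Dync1i1, and at most 0.299% for Kif1a, Kif1b, Dctn1 and Dctn2. The shares were 3.90% for Kif5b and 2.30% for Dync1h1. Genes on the opposite strand overlap the exons of both: AC113003.1 and Gm17036 cover 182 and 142 exonic bases of Kif5b, and Gm35558 and Gm17111 cover 403 and 48 of Dync1h1. The libraries keep strand, but whether the counting used it is not stated, so the Kif5b and Dync1h1 levels carry that uncertainty.

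Kif5a was the most abundant of the 10 per length of transcript. Levels between genes were compared as CPM per kb of exon, over the union of a gene's annotated exons, as the mean ± SD over all 8 libraries. Kif5a, the neuronal heavy chain of kinesin-1, stood at 381 ± 38.0 CPM per kb, 2.15 times the next gene, and its lowest library lay above the highest of every other member. Kif1a followed at 178 ± 11.4 CPM per kb and Kif5c, another neuron-enriched kinesin-1 heavy chain, at 161 ± 12.2 CPM per kb. Their ranges overlapped, although Kif1a was above Kif5c in each of the 8 libraries.

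Kif1b at 64.1 ± 7.58 and Dctn1 at 63.4 ± 3.29 CPM per kb were not ordered beyond their spread, since Kif1b was the higher in 3 of 8 libraries. The same held for Dctn2 at 45.2 ± 2.03 and Dync1i1 at 45.02 ± 4.34 CPM per kb, with Dctn2 higher in 3 libraries. Dync1h1, the dynein heavy chain that holds the motor, stood at 36.5 ± 5.95 CPM per kb and lay below Dync1i1 in 7 of 8 libraries. Kif5b, the kinesin-1 heavy chain found in most tissues, had 29.5 ± 1.56 CPM per kb. Kif21b, a kinesin that also regulates microtubule growth, was lowest at 7.03 ± 0.57 CPM per kb, with no overlap with any other member. With the longest transcript of each gene as its length the order of the 10 means was the same, but several neighbours compared differently. Kif1b, at 110 CPM per kb, was then above Dctn1 in 8 of 8 libraries, and Dctn2, at 84.8, was above Dync1i1 in 8 of 8 with no overlap of their ranges. Dync1h1, above Kif5b in 8 of 8 libraries by the union of exons, was above it in 3 of 8 by the longest transcript. The plot of level per length shows both measures.

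**Figure D1:**
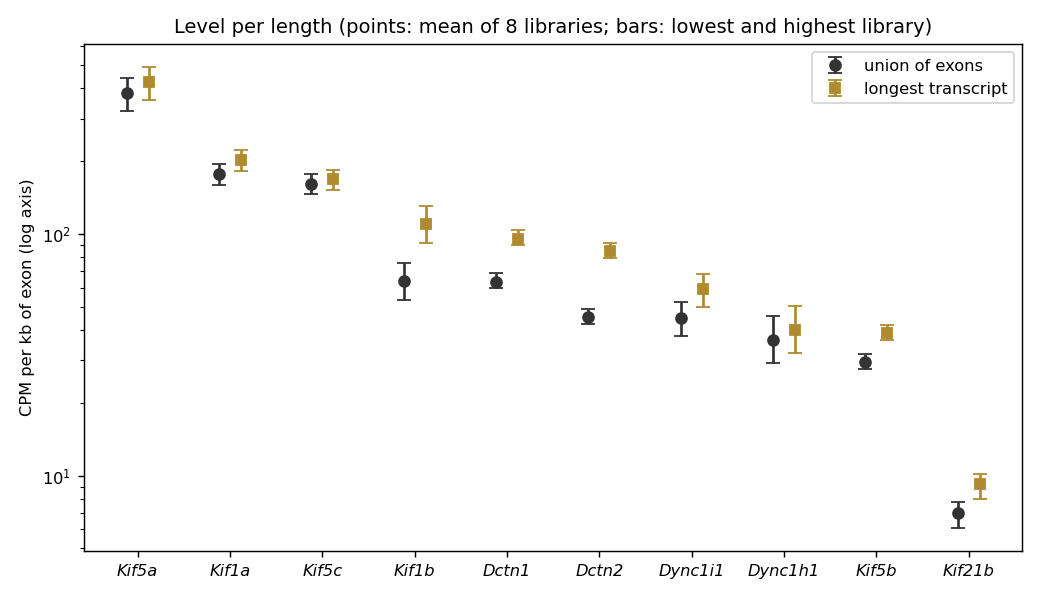
Level per length of the 10 motor genes, in CPM per kb of exon on a log axis, ordered by the mean over 8 libraries. Circles use the union of exons and squares the longest transcript, and bars run from the lowest to the highest library; Kif5a stands at 381 and Kif21b at 7.03 CPM per kb by the union of exons.

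Within the Kif5 family, Kif5a made up 65.6% ± 3.14 of the level per kb in WT and 67.5% ± 3.21 in KO (SD, n = 4 each). Kif5c made up 29.3% ± 2.89 and 27.3% ± 2.74, and Kif5b 5.13% ± 0.32 and 5.21% ± 0.49. Among the kinesin-3 genes Kif1a, Kif1b and Kif1c, Kif1a took 68.2% ± 0.61 in WT and 67.5% ± 2.15 in KO. The shares and levels in this paragraph use the union of exons, and the shares were not computed with the longest transcript. That choice matters for Kif1b, with 17.6 kb of exon union against 10.2 kb of longest transcript (Kif1a 9.33 and 8.21 kb). Of the dynein intermediate chains, which tie dynein to dynactin, Dync1i1 took 79.8% ± 1.33 in WT and 76.7% ± 2.07 in KO, with Dync1i2, the widely expressed form, making up the rest. Subunits of dynein also differed in level: the light chain gene Dynll2 had 319 ± 19.8 CPM per kb in WT, and Dync1li2, a light intermediate chain, 42.3 ± 1.51. In dynactin, Actr1b of the actin-like filament had 68.3 ± 2.31 CPM per kb in WT and Dctn1 65.9 ± 2.74, while Dctn4 had 10.3 ± 0.29.

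None of the 10 motor genes was called different between KO and WT by edgeR's quasi-likelihood test at an adjusted p under 0.05. Over all 16228 genes tested the share called was 0.00%. Dclk3 itself was not called, so the absence of a call does not show equal levels. At an unadjusted p under 0.05, 1 of the 10 was lower in KO, where 2.20% of all genes were, and 0 were higher, where 3.96% of all genes were (6.16% in either direction). In 2 of the 10, Dync1i1 and Dctn1, the KO libraries all had less than the lowest WT library, against 1.92% of all genes tested, and in 0 of the 10 they all had more than the highest, against 1.88%. DESeq2 called 0 of the 10 at an adjusted p under 0.05, against 0.0321% of all genes with an adjusted p. It gave 2 of the 10 an unadjusted p under 0.05 with a lower level in KO, against 1.39% of 29041 genes. These 29041 genes had no filter on low counts, so that share is not comparable with those over the 16228 filtered genes. With limma-voom and quality weights 1 of the 10 had such a p, against 3.43% of the 16228 genes. The log2 fold change (KO minus WT) was below 0 for 8 of the 10, with a median of -0.08, where 49.9% of all genes lay below 0 and the median of all genes was 0.00029. The count of 8 was the same with DESeq2 size factors or upper quartile factors in place of TMM. Mitochondrially encoded genes took 3.58% to 3.90% of counts in the WT libraries and 3.92% to 4.41% in the KO libraries, without overlap, and the part of this difference in the levels of the motor genes was not tested. Bulk RNA cannot tell fewer cells of a type from less RNA per cell.

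**Figure D2:**
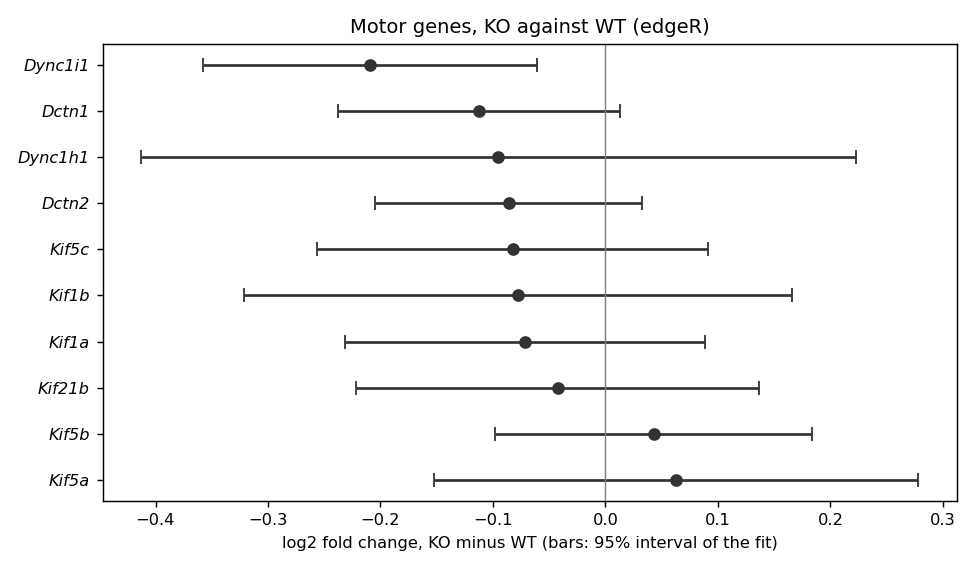
Log2 fold change of each motor gene, KO minus WT, from the edgeR fit on 4 WT and 4 KO libraries, with bars for the 95% interval of the fit. The interval of Dync1i1, -0.36 to -0.06, lies below 0 before adjustment for the number of genes, and the other 9 intervals include 0.

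Dync1i1 encodes the dynein intermediate chain that is enriched in neurons. It had 165.6, 168, 169.9 and 186 CPM in WT replicates 1 to 4 against 136, 146, 159 and 156 CPM in KO replicates 1 to 4. The highest KO library thus lay below the lowest WT library. The means were 172 ± 9.28 CPM in WT against 149 ± 10.6 CPM in KO, so that KO held 86.5% of the WT level. On the log2 scale KO minus WT was -0.21 (SE 0.07), with an unadjusted p of 0.0104 and an adjusted p of 0.796 by edgeR. With each of the 8 libraries left out in turn it ranged from -0.24 to -0.16, with an unadjusted p of 0.00868 to 0.0369 by edgeR. Without WT replicate 2 or KO replicate 1, the ends of the first principal component, it was -0.22 or -0.16. Without WT replicate 4, which had the highest Dync1i1 level, it was -0.17.

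The ratio of Dync1i1 to its widely expressed relative Dync1i2 does not depend on the scaling between libraries. Dync1i2 had 101 ± 3.47 CPM in WT against 105 ± 4.65 CPM in KO. The ratio was 1.61, 1.66, 1.62 and 1.93 in WT replicates 1 to 4 and 1.24, 1.35, 1.59 and 1.54 in KO replicates 1 to 4. The ratios did not overlap between genotypes, and the gap between the nearest libraries, WT replicate 1 and KO replicate 3, was small. The log2 ratio was lower in KO by a difference of -0.26, with an exact two-sided permutation p of 0.0286, the smallest that 4 against 4 allows, and 0.114 after adjustment over the 4 ratios tested. The ratio did not pass after adjustment, but a ratio that is alone among the 4 at this smallest p cannot pass. The adjusted p therefore does not decide whether the ratio differs between genotypes. Before adjustment, the exact permutation p without WT replicate 1, 2, 3 or 4 was 0.0571, 0.0857, 0.0571 or 0.114. Without any single KO replicate it was 0.0286. WT replicate 4, at 1.93, held the highest ratio and is flagged below as a distant value.

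Neither dynactin member passed the test after adjustment. Dctn1, the largest subunit, binds both microtubules and the dynein intermediate chain. It had 415, 449, 412 and 437 CPM in WT replicates 1 to 4 against 390, 389, 405 and 401 CPM in KO replicates 1 to 4. The WT libraries all lay above the KO libraries, and the KO libraries lay close together (SD 8.16 CPM, against 17.8 CPM in WT). On the log2 scale KO minus WT was -0.11 (SE 0.06), with an unadjusted p of 0.0746 and an adjusted p of 0.797 by edgeR. By DESeq2 its unadjusted p was 0.0299, and its adjusted p under the 16 alternatives was never below 0.504.

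Dctn2 encodes dynamitin, which holds the shoulder of the dynactin complex together. It had 235, 221, 219.6 and 218 CPM in WT replicates 1 to 4 against 214, 218, 206 and 204 CPM in KO replicates 1 to 4. KO replicate 2, at 218.2 CPM, lay above WT replicate 4, at 217.7 CPM, so the groups overlapped by this one library, and WT replicate 1 was well above the rest. Its fitted log2 difference was -0.09 (SE 0.05), with an unadjusted p of 0.139 and an adjusted p of 0.797 by edgeR. The ratio of Dctn1 to Dctn2 was 1.92 ± 0.13 in WT and 1.89 ± 0.10 in KO (exact two-sided permutation p = 0.657, adjusted p = 0.857 over the 4 ratios), and its log2 difference of -0.03 became 0.0029 without WT replicate 2 and 0.0013 without KO replicate 2.

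Dync1h1 varied more between libraries of a genotype than between genotypes. It had 549, 579, 517 and 719 CPM in WT replicates 1 to 4 against 460, 491, 563 and 699 CPM in KO replicates 1 to 4. Replicate 4 was the highest of both groups. The log2 fold change was -0.10 (SE 0.14; 95% interval -0.41 to 0.22; edgeR adjusted p = 0.909), and leaving out WT replicate 4 or KO replicate 4 gave 0.01 or -0.23.

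Of the kinesin-1 heavy chains, Kif5a had 2994, 2262, 2506 and 2668 CPM in WT replicates 1 to 4 against 3086, 2679, 2594 and 2538 CPM in KO replicates 1 to 4. WT replicate 2 was the lowest of all 8 libraries and KO replicate 1 the highest. The log2 fold change was 0.06 (SE 0.10; 95% interval -0.15 to 0.28; edgeR adjusted p = 0.912), and without WT replicate 2 or KO replicate 1 it was 0.0037 or 0.0023. Kif5b had 247, 235, 220 and 225 CPM in WT against 223, 234, 245 and 254 CPM in KO, replicates 1 to 4 in each. The groups overlapped over most of their range, and the log2 difference was 0.04 (adjusted p = 0.908 by edgeR, SE 0.06). With a library left out it ran from 0.010 without KO replicate 4 to 0.079 without KO replicate 1.

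Kif5c had 1205, 1261, 1051 and 1223 CPM in WT against 1044, 1089, 1114 and 1229 CPM in KO, replicates 1 to 4 in each. The groups overlapped, as WT replicate 3 lay low and KO replicate 4 high. The fitted log2 difference was -0.08 (adjusted p = 0.856 by edgeR, SE 0.08). With a library left out it ran from -0.13 without KO replicate 4 to -0.05 without KO replicate 1. The ratio of Kif5a to the sum of Kif5b and Kif5c was 1.85 ± 0.24 in WT and 2.02 ± 0.31 in KO. The difference was within the spread of the libraries (exact two-sided permutation p = 0.429, adjusted p = 0.857 over the 4 ratios).

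Of the kinesin-3 motors, Kif1a had 1707, 1725, 1543 and 1818 CPM in WT against 1666, 1492, 1601 and 1706 CPM in KO, replicates 1 to 4 in each. The groups overlapped, with WT replicate 3 below all but one KO library. Its log2 fold change was -0.07 (SE 0.07; 95% interval -0.23 to 0.09; edgeR adjusted p = 0.867), and leaving out WT replicate 3 or KO replicate 2 gave -0.11 or -0.03. Kif1b had 1191, 1159, 1027 and 1262 CPM in WT against 937, 1031, 1090 and 1338 CPM in KO. KO held both its lowest and its highest library, and the fitted log2 difference was -0.08 (adjusted p = 0.905 by edgeR, SE 0.11). Leaving out KO replicate 1 gave -0.0046, and leaving out KO replicate 4 gave -0.19. The ratio of Kif1b to Kif1a lay between 0.665 and 0.698 in the 4 WT libraries and between 0.562 and 0.785 in the 4 KO libraries. Its means did not separate the genotypes (exact two-sided permutation p = 0.857, adjusted p = 0.857 over the 4 ratios), and the log2 difference of -0.02 became 0.07 without KO replicate 1.

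Kif21b had 81.6, 81.2, 93.1 and 91.6 CPM in WT against 94.5, 85.1, 83.6 and 74.1 CPM in KO, replicates 1 to 4 in each. KO held both extremes. The fitted log2 difference was -0.04 (adjusted p = 0.936 by edgeR, SE 0.08), and leaving out KO replicate 4 or KO replicate 1 gave 0.01 or -0.10.

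**Figure D3:**
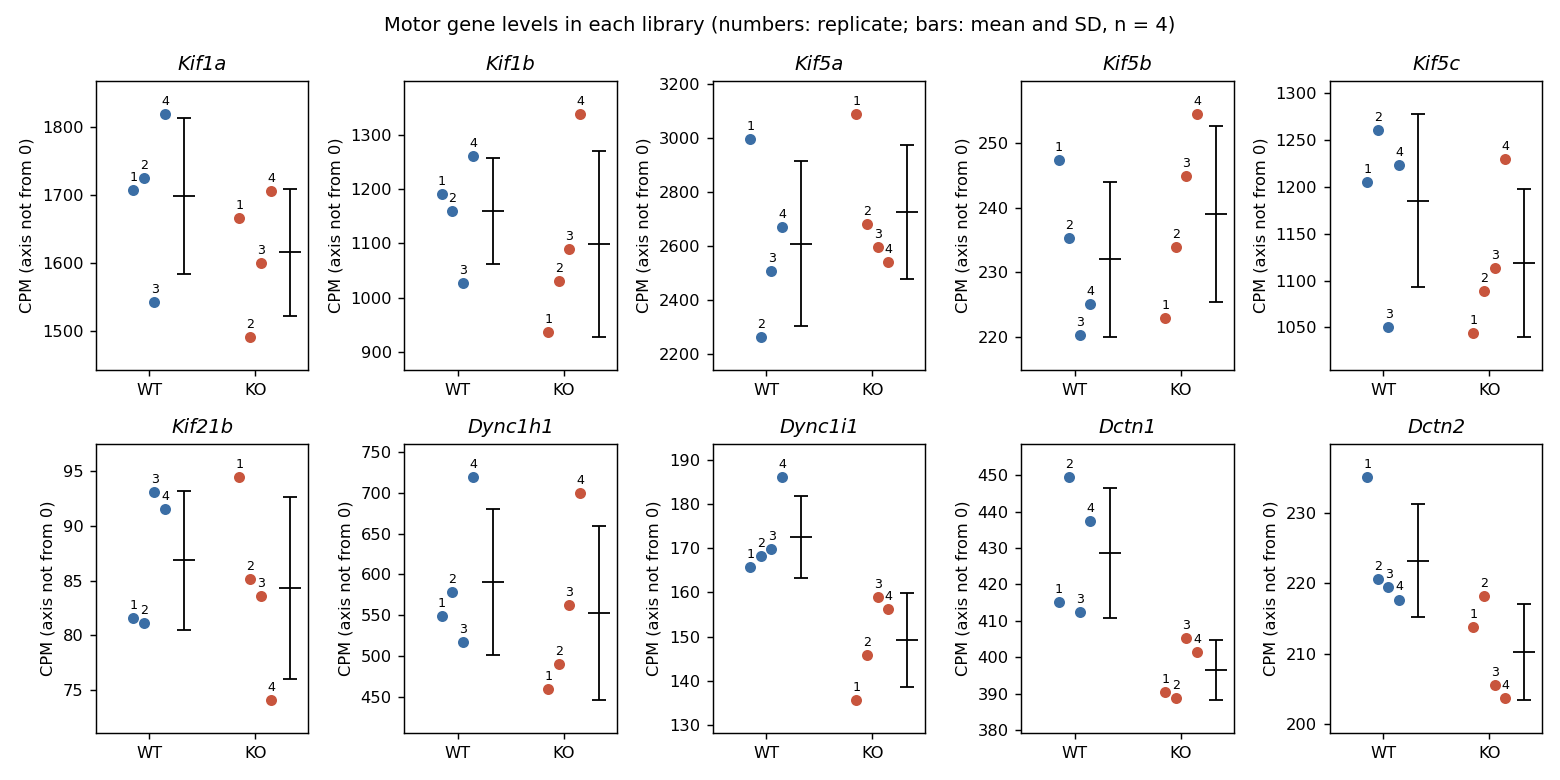
CPM of each motor gene in the 4 WT (blue) and 4 KO (red) libraries, 1 panel per gene, with replicate numbers above the points and bars for the mean and SD; vertical axes do not start at 0. Dync1i1, from 165.6 to 186 CPM in WT and 136 to 159 CPM in KO, and Dctn1 are the panels in which the genotypes do not overlap.

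**Figure D4:**
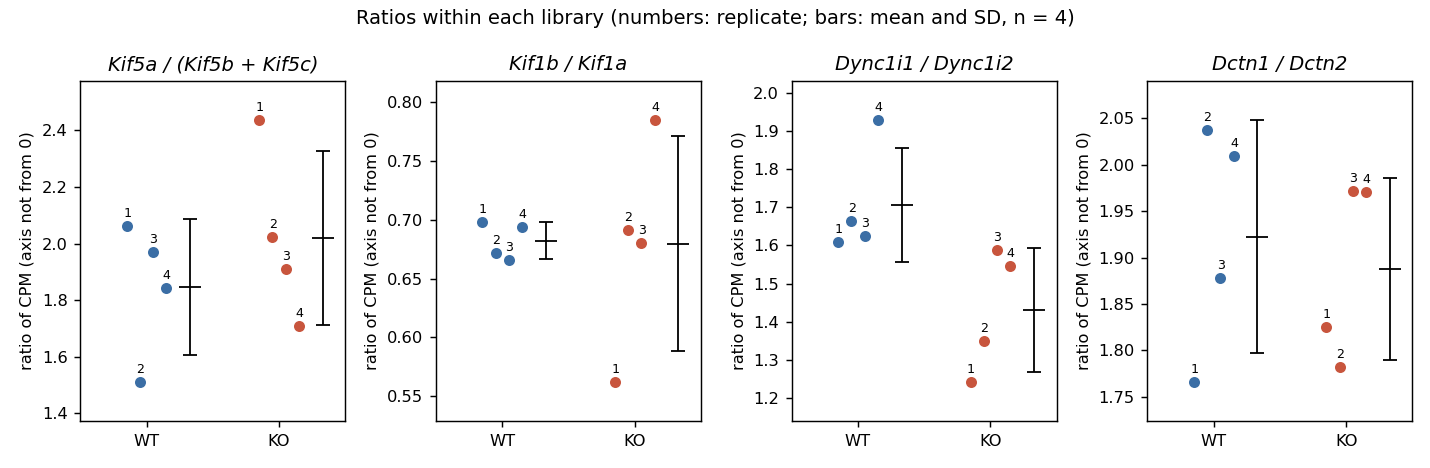
Ratios of CPM within each of the 4 WT (blue) and 4 KO (red) libraries, with bars for the mean and SD; vertical axes do not start at 0. The ratio of Dync1i1 to Dync1i2, 1.71 ± 0.15 in WT and 1.43 ± 0.16 in KO, is the one of the 4 whose genotypes do not overlap.

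Across the 8 libraries the motor genes did not vary as a single block. Kif1b and Dync1h1 had the highest Pearson r of the 45 pairs of members, 0.93 (Spearman rho 0.88), and Kif1b and Kif5c had 0.89 (rho 0.86). With each genotype centred on its own mean, these r were 0.93 and 0.88. Kif5b and Kif21b ran opposite to each other, with r of -0.93 (rho -0.90; -0.94 centred). Kif5a had an r below 0 with 6 of the other 9 members. The points share their libraries and their scaling, and these values describe 8 libraries without a test.

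Single libraries stood at the ends for several members at once. WT replicate 4 was the highest of all 8 for Kif1a, Dync1h1 and Dync1i1. KO replicate 1 was the lowest for Kif1b, Kif5c, Dync1h1 and Dync1i1, and at the same time the highest for Kif5a and Kif21b. WT replicate 3 was the lowest WT library for 6 of the 10. The mean of the centred log2 levels of the 10 genes ran from -0.08 in KO replicate 2 to 0.11 in WT replicate 4, with KO replicate 4 at 0.04 and WT replicate 3 at -0.04, so that this profile overlapped between genotypes. The heat map of centred levels shows these courses.

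**Figure D5:**
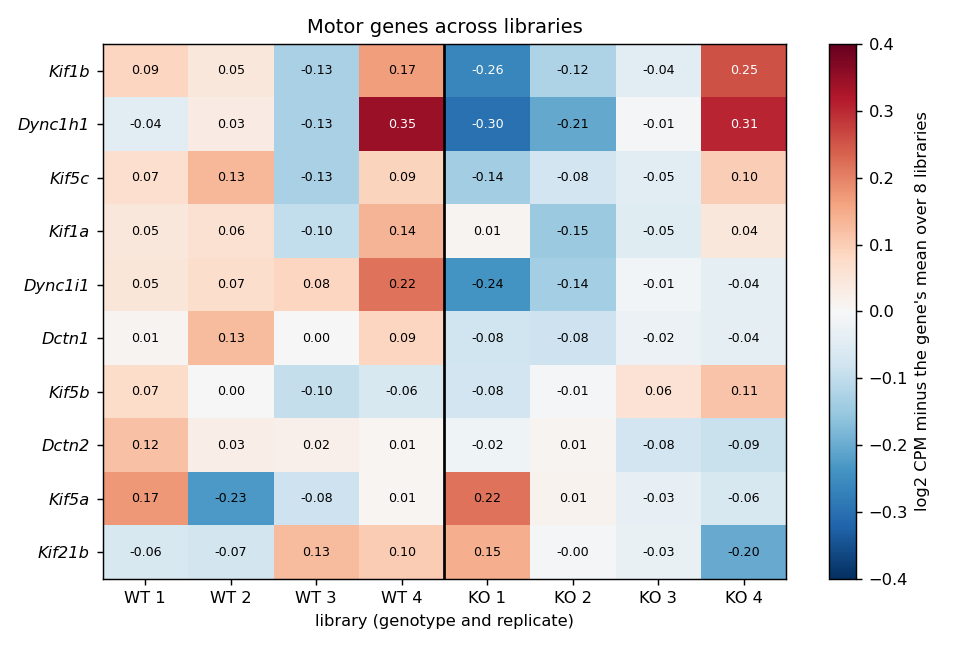
Log2 CPM of each motor gene minus its mean over the 8 libraries (columns: WT and KO replicates; red above, blue below the mean). Dync1h1 runs from -0.30 in KO replicate 1 to 0.35 in WT replicate 4, while Kif5a is at 0.22 in KO replicate 1 and -0.23 in WT replicate 2.

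The 5 other genes whose course over the 8 libraries was most like the mean profile of the motor genes were Cdc42bpb, Gdpgp1, Zfp704, Irgq and Soga1, with Pearson r of 0.98, 0.98, 0.97, 0.96 and 0.95. They are the top of a ranking over all genes tested on 8 points, where high values are found by selection alone.

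No gene in the lists of other transport genes was called either. A list of other neuronal and transport kinesins was wider than transport motors, with genes such as Kif2a, Kif7 and Kifap3. Among its 19 genes tested, 7 had a log2 fold change below 0 and 12 above (median 0.04). Of the 19, 1 had an unadjusted p under 0.05, against 6.16% of all genes in either direction. It was Kif1c, a widely expressed kinesin-3, at 138 ± 10.2 CPM in WT against 154 ± 6.54 CPM in KO. Kif2a, a kinesin that takes microtubules apart, had 97.4 ± 5.64 and 86.6 ± 8.87 CPM, and Kif3b, a kinesin-2 motor, 111 ± 8.25 and 101 ± 10.9 CPM. The most abundant per kb was Kifc2, at 465 ± 52.6 and 473 ± 89.1 CPM. Kinesins of cell division were near the floor of detection, with the 13 found in the table summing to 8.43 to 12.2 CPM per library. Of these 9 were tested, 5 below and 4 above 0 (median -0.16), and Cenpe, a kinetochore kinesin, was the most abundant per kb at 2.39 ± 0.25 and 2.14 ± 0.68 CPM. Kif23, Kif20b and Kif18a had the lowest p of these, with WT means of 0.316, 0.446 and 1.497 CPM.

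Kinesin light chains and cargo adaptors had 22 of 29 below 0 and 7 above (median -0.04). Klc2, a kinesin light chain, had 239 ± 10.2 CPM in WT against 220 ± 12.7 CPM in KO, and Clstn1, a cargo-docking membrane protein and the most abundant per kb, 1270 ± 87.3 and 1153 ± 68.8 CPM. Rhot1, which anchors motors to mitochondria, had 84.4 ± 6.86 and 76.6 ± 6.49 CPM. By edgeR these 3 shared an adjusted p of 0.797, and none of the 29 had an unadjusted p under 0.05.

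Other subunits of dynein were split, with 4 of 9 tested below 0 and 5 above (median 0.0039). Dync1li1 had 93.1 ± 6.48 and 84.9 ± 5.26 CPM, and the light chain gene Dynlt3 159 ± 4.79 and 152 ± 4.25 CPM. Dynlt1a, with 0.293 ± 0.11 and 0.368 ± 0.11 CPM, is uncertain because it has near-identical copies. Dynll2, the most abundant per kb, had 872 ± 54.2 and 874 ± 47.3 CPM. Other dynactin subunits had 8 of 10 below 0 (median -0.05). In this list Dctn4, of the pointed end of dynactin, had an unadjusted p under 0.05, with 119.7 ± 3.36 CPM in WT, 110 ± 4.12 CPM in KO and no overlap (log2 fold change -0.12, with an unadjusted p of 0.0411 and an adjusted p of 0.796 by edgeR). Over all genes tested, 2.20% had such a p with a lower level in KO, and 1.92% had all KO libraries below all WT libraries. Actr1b had 292 ± 9.88 and 274 ± 9.51 CPM, Actr1a 214 ± 8.77 and 199.9 ± 13.1 CPM, and Capzb, a filament capping protein and the most abundant per kb, 246 ± 12.3 and 235 ± 15.95 CPM.

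Regulators and adaptors of dynein had 8 of 17 tested below 0 and 9 above (median 0.0014), and 9 below 0 with DESeq2 size factors (median -2.28e-05). Ndel1, which binds dynein together with Lis1, had 80.4 ± 2.38 CPM in WT against 73.2 ± 3.08 CPM in KO without overlap (log2 fold change -0.14, with an unadjusted p of 0.0257 and an adjusted p of 0.796 by edgeR). Of the 17 it was the 1 lower in KO at an unadjusted p under 0.05, against 2.20% of all genes, and the 1 lower without overlap, against 1.92%. Its relative Nde1 had 24.6 ± 2.42 and 27.3 ± 0.821 CPM, on the other side of 0. Hook1, a cargo adaptor, had 42.6 ± 3.93 and 49.5 ± 8.89 CPM, and Pafah1b1, the gene of Lis1 and the most abundant per kb, 764 ± 44.2 and 701 ± 82.3 CPM. Dyneins of cilia had 4 of 18 below 0 and 14 above (median 0.08), and none had an unadjusted p under 0.05. Wdr60 had 13.9 ± 0.965 and 15.7 ± 1.17 CPM, Dnah7b 1.55 ± 0.42 and 2.06 ± 0.24 CPM, Dnah12 0.813 ± 0.31 and 1.13 ± 0.32 CPM, and Dync2li1, the most abundant per kb, 17.1 ± 1.19 and 18.0 ± 1.32 CPM.

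No cell type marker was called by edgeR, and the lists leaned to different sides of 0. Of 12 neuron markers 11 had a log2 fold change below 0 (median -0.07, against -0.08 for the 10 motor genes), with their summed level at 15914 to 17867 CPM in WT and 15818 to 17394 CPM in KO. WT replicate 4 had the highest and WT replicate 3 the lowest neuron marker sum of WT, as they had for the summed motor genes. In KO, replicate 4 was the highest for both sums, while the lowest was replicate 1 for the neuron markers and replicate 2 for the motor genes. Hippocampal field markers had 7 of 10 below 0 and 3 above (median -0.08), and KO replicate 1 had their lowest sum. Of 9 GABA neuron markers 7 lay below 0 (median -0.13). Their sum, 1009 to 1074 CPM in WT and 920 to 947 CPM in KO, did not overlap between genotypes. Gad1 had the highest CPM of the 9 and so weighed most in that sum. How often such sums separate the genotypes was not determined. Of the 9 taken singly, only 1, Gad1, had all KO libraries below all WT libraries, against 1.92% of all genes tested. Gad1, which makes GABA, had 432 ± 22.6 and 376 ± 11.5 CPM (unadjusted p of 0.00791 by edgeR). Vip, a peptide of one interneuron class, lay on the other side with 20.6 ± 1.66 and 23.7 ± 2.45 CPM (unadjusted p of 0.0441), and Pvalb, a calcium-binding protein of another, had 24.5 ± 3.77 and 25.5 ± 2.02 CPM. The adjusted p was 0.796 for Gad1 and for Vip. In the other marker lists, only Slc17a7 and Mobp had an unadjusted p under 0.05 by edgeR, each with an adjusted p of 0.796. Slc17a7, a neuron marker, had 1704 ± 193 and 1483 ± 62.0 CPM (unadjusted p of 0.0388). Mobp, an oligodendrocyte marker, was higher in KO, with 517 ± 106 and 647 ± 45.8 CPM (unadjusted p of 0.0290). Over all genes tested, 2.20% were lower in KO at such a p and 3.96% higher. On the other side, oligodendrocyte markers had 8 of 10 above 0 (median 0.13), with sums of 3671 to 5175 CPM in WT and 4438 to 4972 CPM in KO. Microglia markers had 8 of 8 above 0, endothelial markers 6 of 6, astrocyte markers 6 of 8, and choroid plexus and ependymal markers 7 of 8. No marker in any of these lists was at 0 in all 8 libraries. The part of these cell types in the levels of the motor genes was not tested.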

How the data were processed

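Poly(A) RNA of 8 hippocampal libraries (4 WT, 4 KO) was measured. The authors deposited raw read counts per Ensembl gene, 1 column per library, per the file headers. Libraries were stranded and made from 1000 ng of total RNA with 12 PCR cycles, per the labels' protocols. The submitters' processing notes name bcl2fastq 2.17.1.14 and the mm10 build. Alignment and counting tools, and whether counting used strand, were not stated.

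KO was compared with WT with edgeR 4.0.16 in R 4.3.3 (filterByExpr, TMM, robust quasi-likelihood F test, Benjamini-Hochberg over all genes tested, call at an adjusted p under 0.05). CPM used the same scaling, and SE is the log2 fold change divided by the square root of F. Exon lengths came from GENCODE M21. Ratios were tested by exact two-sided permutation over 8 libraries. The pipeline was tested on simulated data. Pairs of libraries within a genotype differed beyond sampling noise (chi-square per degree of freedom 8.85 to 40.9), so none was treated as a repeat of another. Each library counted as 1 replicate, but this check cannot show that libraries came from different animals.

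The members and lists were chosen with earlier results of these data known. Named genes are the 10 members, the 3 lowest p and the most abundant gene per kb of each transport list, and the 5 genes most like the members' mean profile. The markers printed with values were picked with those values known. Alternatives were DESeq2 1.42.0, limma-voom (limma 3.58.1), other scalings and filters, no robust estimation, a replicate block, a threshold of 0.1, each library left out, and another gene length.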

Additional observations from a re-analysis of the deposited data

Results flagged for a closer look

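Among 28 groups of 4 libraries checked for a single distant value (Dixon's test, 10 motor genes and 4 ratios in each genotype), 2 were flagged, and chance flags about 1 in 20 such groups. Dctn2 in WT was flagged because WT replicate 1 had 235.1 CPM while the other 3 WT libraries had 217.7 to 220.6 CPM. The ratio of Dync1i1 to Dync1i2 in WT was flagged because WT replicate 4 had 1.93 while the other 3 WT libraries had 1.61 to 1.66.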

How the results depend on the processing

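Of 160 log2 fold changes of single motor genes under 16 alternatives, 158 kept their sign and none was called; Kif21b became 0.013 without KO replicate 4 and Dync1h1 0.012 without WT replicate 4, in ranges over the left-out libraries of -0.097 to 0.013 and -0.23 to 0.012. Over all genes, edgeR called 0 genes, with 1000 at an unadjusted p under 0.05, while DESeq2 called 5 and limma-voom called 0, with 1505 at an unadjusted p under 0.05. With a library left out, 0 to 1 genes were called and 556 to 1777 had an unadjusted p under 0.05; 556 was without WT replicate 4, 640 without KO replicate 2 and 1777 without KO replicate 4. The motor genes with an unadjusted p under 0.05 and a lower level in KO were 1 in edgeR and 2 by DESeq2, and 1 with each library left out. Same-numbered libraries did not deviate together (correlations -0.22 to 0.14), but this cannot settle whether the numbers pair the samples. With the replicate number as a block 1 gene was called, no motor gene among them. The sign-flip test over pairs cannot go below 0.125. With a library left out, the log2 difference was 0.033 to 0.20 for Kif5a against Kif5b and Kif5c, -0.088 to 0.072 for Kif1b over Kif1a (0.072 without KO replicate 1), -0.31 to -0.19 for Dync1i1 over Dync1i2, and -0.066 to 0.0029 for Dctn1 over Dctn2 (0.0029 without WT replicate 2, 0.0013 without KO replicate 2); the cause of these reversals was not tested. With the longest transcript as length the levels were 423 (Kif5a), 202 (Kif1a), 110 (Kif1b), 95.5 (Dctn1), 84.8 (Dctn2), 59.2 (Dync1i1), 39.0 (Kif5b) and 9.25 (Kif21b) CPM per kb, all higher because that length is shorter. The depth gave each member at least 2317 counts, so the SD of counting error was at most 2.08% of a level. That SD leaves out the uncertainty of assignment given for Kif5b and Dync1h1.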
